A study of Rattus norvegicus with 28 samples.

Results

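Transcripts of 9 cyclic nucleotide phosphodiesterase genes, Pde1c, Pde2a, Pde3b, Pde4a, Pde4b, Pde4d, Pde7a, Pde8b and Pde10a, were followed by bulk RNA-seq in rat INS-1 cells. These genes were taken by symbol from the 17455 symbols with a transcript in the deposited table, and all 9 reached a mean of 1 TPM, a unit of transcript abundance scaled for length and depth, the level that 10275 symbols passed and that was required for testing. INS-1 is an insulin-secreting insulinoma line. It was either WT or carried the Med14 S983A knock-in, made by genome editing and grown from sorted single cells, which replaces a serine of a Mediator subunit that the study examined as a target of protein kinase A. Cells of either genotype were left untreated (CON) or were exposed for 1, 8 or 16 h to exendin-4 (Ex-4, 10 nM) or forskolin (FSK, 10 µM). Ex-4 acts through the GLP-1 receptor, whereas FSK turns on adenylyl cyclase without a receptor. All groups were kept without serum before treatment, and the labels give the CON libraries no hour. There were 14 groups of 2 libraries each, 28 in all. The study made independent knock-in lines, but the labels do not say which of them a library came from, so what belongs to the residue and what belongs to a cell line cannot be told apart.

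Cyclic nucleotide phosphodiesterases break down cAMP and cGMP and so end the signals that adenylyl and guanylyl cyclases start. The families differ in substrate and in control. PDE3, PDE4, PDE7 and PDE8 enzymes act mainly on cAMP, whereas PDE1, PDE2 and PDE10 enzymes act on both nucleotides. PDE1 is switched on by calcium and calmodulin, PDE2 is stimulated and PDE3 is inhibited by cGMP, and long PDE4 forms are activated through phosphorylation by protein kinase A. In beta cells, phosphodiesterases limit how far cAMP raises insulin secretion, and PDE3B has been known for longest in that role.

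The libraries held 38175238 to 51335378 fragments on these symbols, apart from the 82873934 of the second Med14 S983A library of the 8 h FSK group. The ERCC spike-in, synthetic RNA that was put into equal masses of sample RNA, made up 0.736% to 1.15% of fragments. The Pearson r between the log2 values of replicates was 0.998 to 0.999 over genes. The study's methods call replicates biological, but neither they nor the labels say whether they were separate cultures, and p-values measure the spread between these libraries. Of 10 beta cell markers, 8 were in the table and all 8 had a mean of at least 1 TPM, together 4.48% to 8.401% of all TPM. Markers of delta, PP, acinar and endothelial cells each summed to less than 1 TPM in every library, and those of ductal cells, fibroblasts and immune cells to at most 4.07 TPM. The alpha cell gene Gcg ranged between 6.09 and 1345 TPM over the libraries, while the alpha cell markers Irx2 and Ttr were at most at 0.276 TPM. The part of Gcg in the results was not tested. In bulk RNA, fewer cells of a type and less RNA per cell cannot be told apart. Med14 itself was at 20.9 ± 0.883 TPM in WT CON and 19.9 ± 0.504 TPM in Med14 S983A CON (SD, n = 2 each), which does not check the genotype since a single residue was changed.

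Differences are given on the log2(TPM + 1) scale, which understates the change of low genes, with the standard error (SE) and Benjamini-Hochberg adjusted p of limma over 10275 symbols. A gene was called when the adjusted p was under 0.05 and the fold above 1.5, a log2 difference of 0.585. Beside counts of the 9 genes called higher or lower in a contrast of the main fit stands the share of all tested symbols called in that direction. Counts over several contrasts stand beside a pooled share of all tests, in part in either direction only. For later against earlier times only a pooled share was computed. No such share was computed for counts under other scalings or thresholds, which are given without a background. The 6 treated groups of a genotype were compared with the same CON libraries.

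In untreated WT cells the order of the genes by TPM, which is per length, ran from Pde3b and Pde2a through Pde10a, Pde7a, Pde4d and Pde1c to Pde8b, Pde4b and Pde4a. Pde3b (NM_017229, chromosome 1, 183892841 to 184078071 in rn6) had 79.4 and 74.1 TPM in the WT CON libraries and Pde2a (NM_031079, chromosome 1, 166564695 to 166626148) had 55.4 and 51.1. Levels of Pde7a and Pde4d overlapped in these libraries, as did those of Pde8b and Pde4b. Pde3b and Pde2a supplied 42.5% ± 0.250 and 29.5% ± 0.0694 of the summed TPM of the 9 genes (SD, n = 2). In Med14 S983A CON the share of Pde3b was 49.7% ± 2.15 and that of Pde2a 15.7% ± 1.10. Over the 28 libraries, mean levels lay between 3.22 TPM for Pde8b, which was counted with 81 to 409 fragments per library, and 98.2 TPM for Pde3b, which was counted with 7070 to 34733. Among all tested symbols Pde3b stood at the 82.7th percentile of mean TPM, Pde10a at the 53.1st and Pde8b at the 9.2nd.

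**Figure D1:**
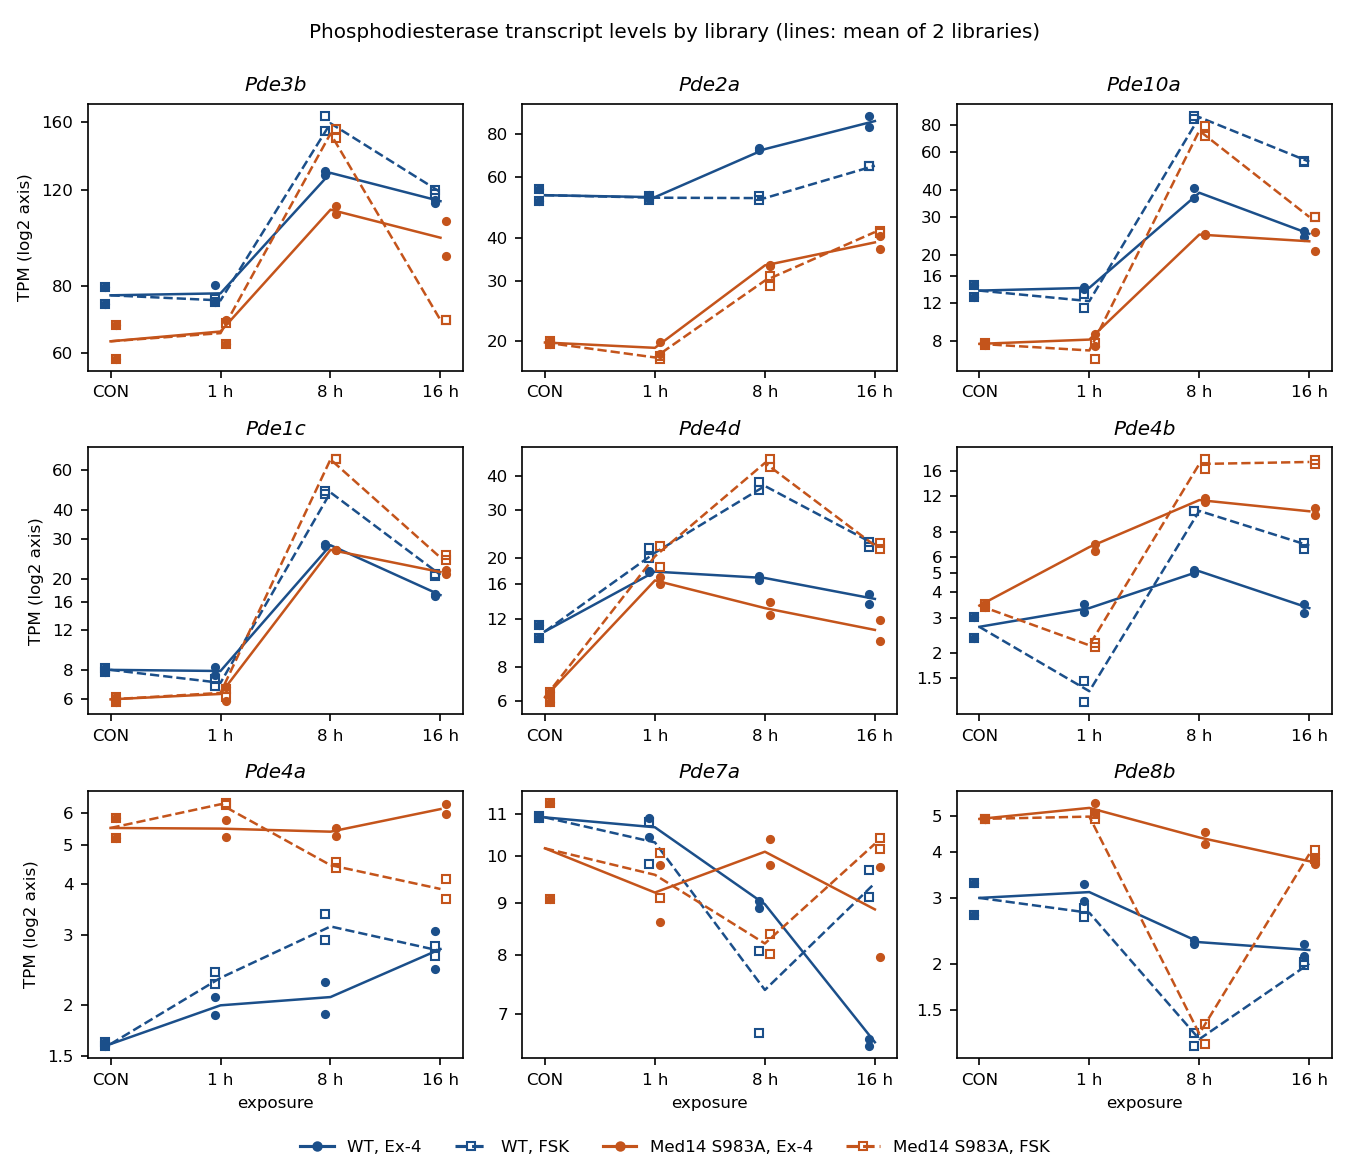
TPM of each gene in each library on a log2 axis, by exposure (CON, 1, 8 or 16 h), with points for libraries and lines through the means of 2 libraries; blue is WT and orange Med14 S983A, filled symbols and solid lines Ex-4, open symbols and dashed lines FSK. Pde3b, Pde10a, Pde1c, Pde4d and Pde4b stood higher at 8 h of FSK than at CON in both genotypes, while no WT library of Pde2a (51.1 TPM or more) overlapped a Med14 S983A library (41.8 TPM or less).

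The summed TPM of the 9 genes was 181 ± 9.83 in WT CON and rose to 304 ± 1.13 after 8 h of Ex-4 and 405 ± 4.98 after 8 h of FSK (SD, n = 2 each). At 16 h the sums were 273 ± 8.43 with Ex-4 and 302 ± 2.96 with FSK. Untreated Med14 S983A cells had a lower sum of 127 ± 7.198 TPM, which reached 240 ± 0.658 after 8 h of Ex-4 and 401 ± 15.2 after 8 h of FSK. After 1 h the sums were 189 ± 2.56 (Ex-4) and 184 ± 5.41 (FSK) in WT, with libraries that overlapped those of CON. In Med14 S983A they were 143 ± 9.63 and 140.3 ± 8.96 at that time, with libraries above those of CON, and at 16 h 221 ± 19.8 (Ex-4) and 224 ± 2.17 (FSK). These sums were not tested, and Pde3b held the largest share of them in each of the 14 groups.

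**Figure D2:**
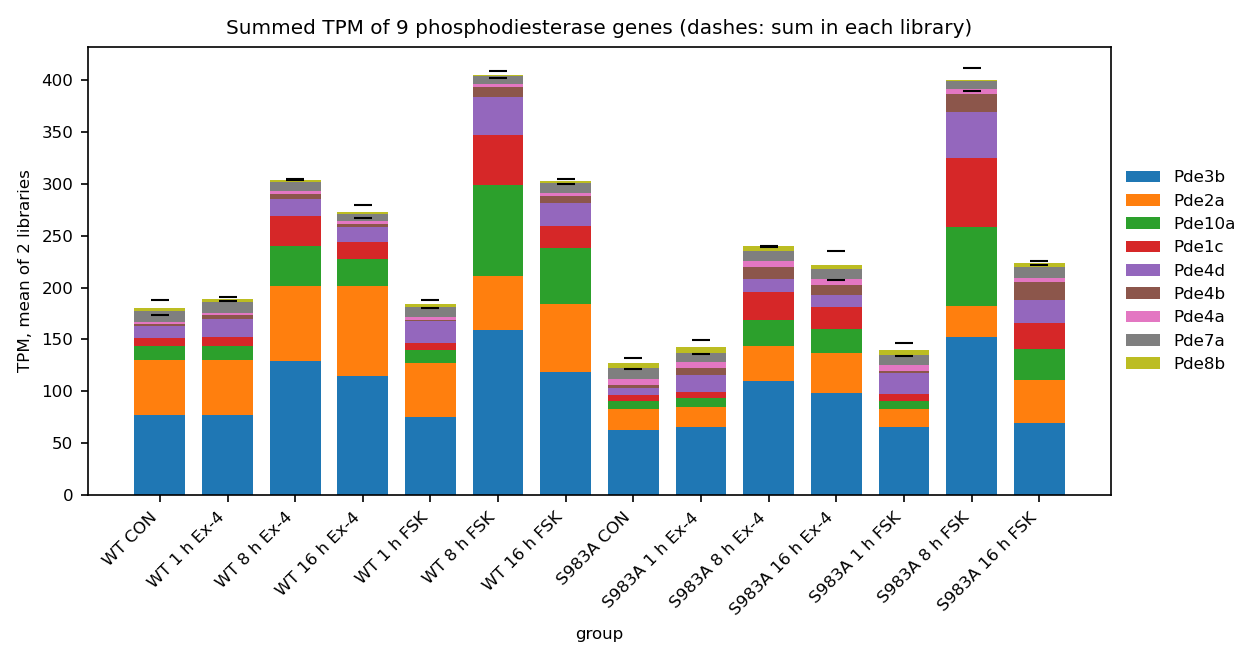
Stacked TPM of the 9 genes per group (bars: means of 2 libraries; dashes: the sum in each library), linear axis from 0. The sum in WT went from 181 TPM at CON to 405 TPM at 8 h of FSK, and in Med14 S983A from 127 to 401 TPM.

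After 1 h of Ex-4 in WT, 1 of the 9 genes was called higher and 0 lower, beside 1.75% and 1.12% of all symbols. At 8 h, 5 rose (background 3.61%) and 0 fell (5.99%), and at 16 h 3 rose (3.53%) and 1 fell (8.28%). The counts at 16 h became 5 and 0 with median-centred libraries and 6 and 0 with ERCC scaling. In WT under FSK, 1 rose (2.53%) and 1 fell (4.94%) at 1 h, 6 rose (8.77%) and 1 fell (34.8%) at 8 h, and 5 rose (10.3%) and 0 fell (24.1%) at 16 h, where 7 rose with ERCC scaling. Over the 3 times this made 10 of 27 tests called for Ex-4 and 14 of 27 for FSK, beside 8.09% and 28.5% of all tests in either direction.

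In Med14 S983A, Ex-4 raised 2 of the genes after 1 h (background 2.03%), 6 after 8 h (3.21%) and again 6 after 16 h (4.73%), and lowered 0 at any time (1.00%, 3.09% and 7.15% of all symbols were lowered). FSK raised 1 after 1 h (3.19%), 5 after 8 h (11.6%) and 5 after 16 h (12.2%), and it lowered 1, at 8 h (34.5%), against 7.20% and 21.1% of all symbols at 1 and 16 h. These were 14 of 27 tests for Ex-4 and 12 of 27 for FSK, beside 7.07% and 29.9% of all tests. The median log2 difference of the 9 genes was 1.04 at 8 h of FSK in WT and 1.26 in Med14 S983A, where the medians of all symbols were −0.34 and −0.28. At 8 h of Ex-4 the medians of the 9 genes were 0.61 and 0.80 against −0.097 and −0.026 over all symbols. The study itself names Pde10a, Pde2a and Pde4d as repressed in Med14 S983A, and Pde10a among the genes that 1 h of Ex-4 induced. The direction of these genes is therefore not independent evidence. For Pde10a at 1 h of Ex-4 in WT the difference here was 0.043 and not called.

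**Figure D3:**
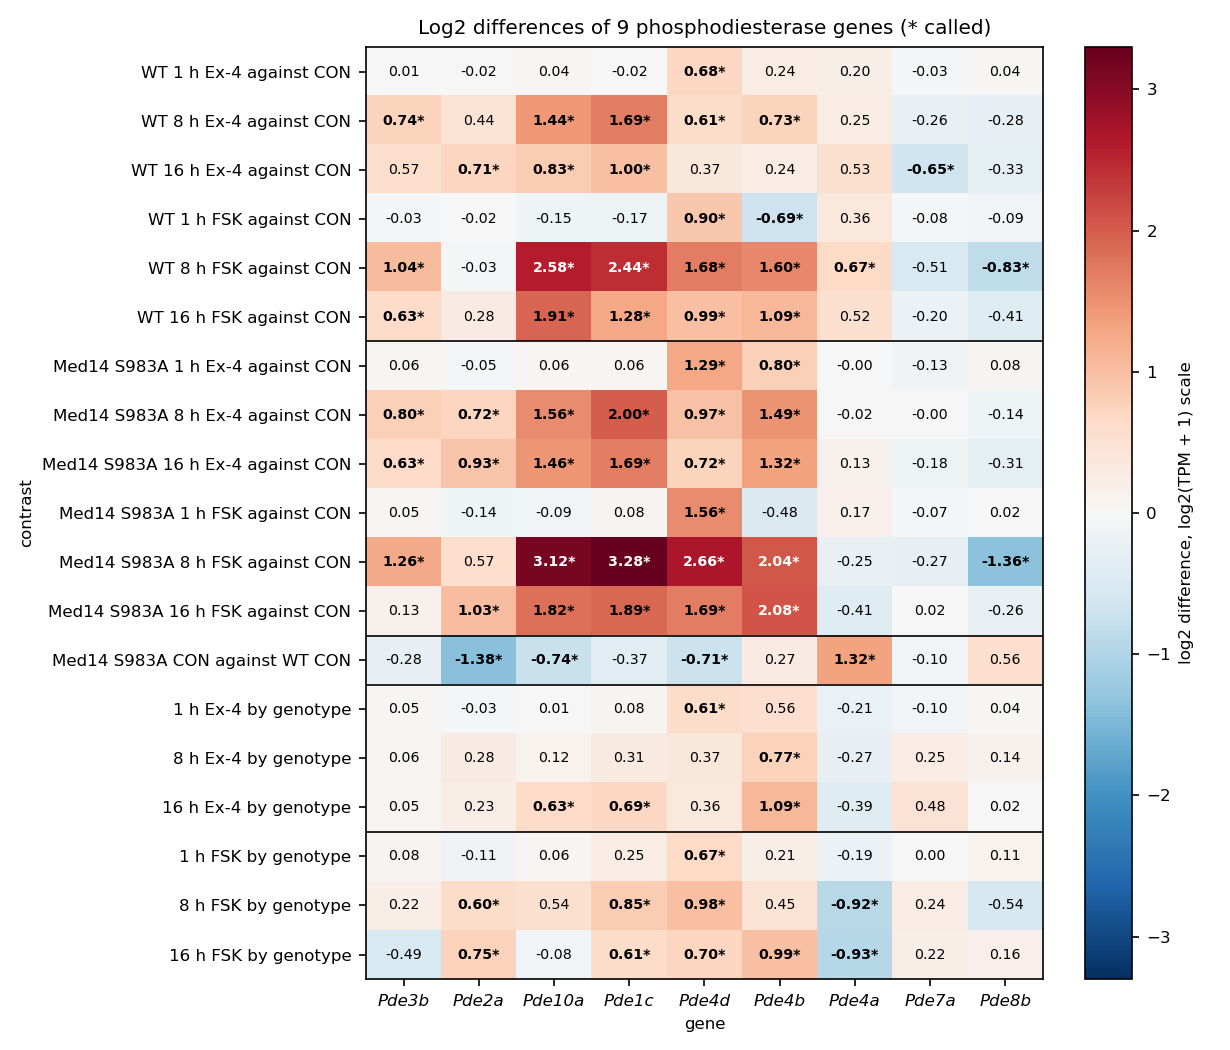
Log2 differences of the 9 genes (columns) in 19 contrasts (rows: treatments against CON in WT and Med14 S983A, genotype at CON, and the treatment by genotype differences); red is higher, blue lower, and a star marks a call. The largest value was 3.28 for Pde1c at 8 h of FSK in Med14 S983A, and the row of genotype at CON holds both the −1.38 of Pde2a and the 1.32 of Pde4a.

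Pde3b encodes the cGMP-inhibited enzyme that limits cAMP in beta cells. Its level was 154 and 164 TPM at 8 h of FSK and 128 and 130.0 TPM at 8 h of Ex-4 in WT, all above the CON libraries. The log2 differences were 1.04 (SE 0.064, adjusted p 8.89e-14) and 0.74 (SE 0.064, adjusted p 4.95e-10). In Med14 S983A the libraries went from 67.6 and 58.7 TPM at CON to 155 and 149 at 8 h of FSK, a difference of 1.26 (SE 0.064, adjusted p 1.54e-15), and to 112 and 109 at 8 h of Ex-4, a difference of 0.80 (SE 0.064, adjusted p 1.82e-10). At 16 h of FSK the genotypes stood apart, with 118 and 119.9 TPM in WT and 69.1 and 69.2 TPM in Med14 S983A, the latter within 1.5-fold of its CON (0.13). The WT call at 16 h of FSK (0.63) fell to 0.58 without replicate 2 of WT CON. At 16 h of Ex-4 the difference was 0.57 (SE 0.064, adjusted p 3.40e-08) in WT, short of the fold, and 0.63 (SE 0.064, adjusted p 7.62e-09) in Med14 S983A. The first passed without WT CON replicate 1 (0.62), with median-centred libraries (0.76) and ERCC scaling (0.89), and the second was lost with ERCC scaling (0.52), without replicate 2 of Med14 S983A CON (0.53) and without replicate 1 of the treated group (0.52).

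Pde2a, the cGMP-stimulated enzyme that hydrolyses both nucleotides, was not called at 1 h of either agent. In WT it had 72.02 and 72.998 TPM at 8 h and 84.3 and 90.7 TPM at 16 h of Ex-4, with differences of 0.44 (SE 0.050, adjusted p 6.40e-08) and 0.71 (SE 0.050, adjusted p 1.09e-11) from CON, of which the second was called. FSK left it at 51.7 and 52.8 TPM at 8 h (−0.027), within the range of the CON libraries, and at 64.96 and 64.8 TPM at 16 h (0.28). In Med14 S983A its CON libraries were at 19.7 and 20.04 TPM. They compare with 33.4 and 33.2 TPM at 8 h of Ex-4, 40.5 and 37.1 at 16 h of Ex-4, 31.04 and 29.1 at 8 h of FSK and 41.4 and 41.8 at 16 h of FSK. The differences were 0.72, 0.93, 0.57 and 1.03 in that order, each with an SE of 0.050, and all but that at 8 h of FSK were called. That one passed with median-centred libraries (0.91), without Med14 S983A CON replicate 2 (0.59) and without replicate 2 of the treated group (0.62). None of the treated Med14 S983A libraries reached the lowest WT CON library, at 51.1 TPM. With ERCC scaling the WT differences at 8 h of Ex-4 and at 16 h of FSK also passed the fold (0.60 and 0.65).

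Pde10a (NM_022236, chromosome 1, 52360296 to 52544447) encodes a phosphodiesterase of both nucleotides best known from striatal neurons. In WT it stood at 14.6 and 12.9 TPM at CON and 13.98 and 14.3 at 1 h of Ex-4, which overlapped. It was at 40.9 and 36.998 TPM at 8 h and 24.4 and 25.96 at 16 h of Ex-4, and at 88.6 and 85.8 and 54.1 and 54.4 TPM at those times of FSK. The rise was largest at 8 h of FSK, 2.58 (SE 0.086, adjusted p 3.03e-19), beside 1.44 (SE 0.086, adjusted p 5.75e-13) for Ex-4. At 16 h the rises were 1.91 with FSK and 0.83 with Ex-4 (SE 0.086 each), again with every treated library above every CON library. In Med14 S983A the CON libraries, at 7.71 and 7.85 TPM, were below those of WT. FSK brought them to 79.8 and 71.2 TPM at 8 h, a rise of 3.12 (SE 0.086, adjusted p 4.93e-21), and Ex-4 to 25.1 and 24.8 TPM, a rise of 1.56 (SE 0.086, adjusted p 1.51e-13). After 16 h the levels were 30.1 and 30.1 TPM with FSK and 25.5 and 20.9 TPM with Ex-4, with differences of 1.82 and 1.46. At 1 h its differences lay between −0.15 and 0.056 over both agents and genotypes, and none was called.

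Pde1c (NM_031078, chromosome 4, 86359820 to 86833450), the calcium- and calmodulin-dependent enzyme, moved in the same time window. WT libraries went from 8.18 and 7.91 TPM at CON to 28.4 and 27.9 at 8 h of Ex-4 and 47.3 and 48.6 at 8 h of FSK. The differences were 1.69 (SE 0.060, adjusted p 3.22e-17) and 2.44 (SE 0.060, adjusted p 9.59e-22), and no treated library overlapped CON. Med14 S983A libraries began at 5.81 and 6.15 TPM and held 66.8 and 66.8 TPM at 8 h of FSK, with the largest difference of any of the 9 genes against CON, 3.28 (SE 0.060, adjusted p 2.54e-24). At 8 h of Ex-4 they held 26.9 and 26.9 TPM, a difference of 2.00. By 16 h the differences were 1.00 (Ex-4) and 1.28 (FSK) in WT and 1.69 and 1.89 in Med14 S983A (SE 0.060 each), all called. At 1 h, levels stayed between 5.87 and 8.29 TPM in all 8 treated libraries, and no difference was called.

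Pde4d (NM_017032, chromosome 2, 40971874 to 41464111), a cAMP-specific enzyme of the PDE4 family, was the gene of the 9 that both agents raised already at 1 h in both genotypes. WT libraries went from 11.3 and 10.2 TPM at CON to 17.9 and 17.7 at 1 h of Ex-4 and 21.8 and 19.97 at 1 h of FSK. These were differences of 0.68 (SE 0.081, adjusted p 4.92e-07) and 0.90 (SE 0.081, adjusted p 1.47e-09), without overlap with CON. Med14 S983A libraries went from 6.44 and 5.93 TPM to 17.1 and 15.99 and 18.5 and 22.02 TPM, differences of 1.29 (SE 0.081, adjusted p 2.89e-12) and 1.56 (SE 0.081, adjusted p 2.06e-14). The level was highest at 8 h of FSK, with 37.7 and 35.5 TPM in WT (1.68) and 45.8 and 43.1 TPM in Med14 S983A (2.66), and stood at 21.9 and 22.9 and 22.8 and 21.6 TPM at 16 h (0.99 and 1.69). With Ex-4 it was 16.5 and 17.2 TPM at 8 h and 13.6 and 14.7 TPM at 16 h in WT, differences of 0.61 and 0.37, of which only the first was called. Leaving out replicate 2 of WT CON ended the call at 8 h (0.53), as did leaving out replicate 2 of the treated group (0.58), and the difference at 16 h passed with ERCC scaling (0.66). In Med14 S983A the 8 and 16 h differences with Ex-4 were 0.97 and 0.72, both called.

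Since several of the genes rose together under agents that raise cAMP, their promoters, 250 bases before the start, were looked up in RefSeq (GRCr8), and 7 of the 9 genes matched, with 17 promoters. No entry matched Pde3b or Pde7a. They were searched on both strands for TGACGTCA, the full cAMP response element bound by CREB, and for TGACG, its shorter form, which the full element contains. TGACG was present in 5 of the 17 promoters (29.4%), of Pde10a, Pde4d and Pde4a, and in 18.2% of all 33469 promoters of that length. TGACGTCA was in 0 of the 17 and in 1.59% of all. Which promoter gives rise to which row of the TPM table was not matched, and a match of letters is a description and not a binding site. The promoters of Pde10a and Pde4d with matches are shown and, beside them, that of Pde1c, whose transcript also rose and whose promoter held 0, each 5′ to 3′ on its own strand with TGACG or its reverse complement in capitals.
Pde10a promoter 1, chr1:54765669-54765918, minus strand: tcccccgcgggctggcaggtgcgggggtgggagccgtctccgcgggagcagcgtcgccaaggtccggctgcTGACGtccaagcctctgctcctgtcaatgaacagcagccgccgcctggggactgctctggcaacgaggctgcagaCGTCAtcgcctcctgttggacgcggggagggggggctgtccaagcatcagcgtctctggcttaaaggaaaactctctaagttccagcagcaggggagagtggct
Pde4d promoter 3, chr2:42592499-42592748, plus strand: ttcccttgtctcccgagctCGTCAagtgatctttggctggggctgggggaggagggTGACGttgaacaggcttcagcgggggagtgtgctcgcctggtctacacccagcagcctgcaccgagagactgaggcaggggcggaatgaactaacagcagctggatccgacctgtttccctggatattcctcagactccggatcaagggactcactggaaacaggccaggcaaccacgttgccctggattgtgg
Pde4d promoter 4, chr2:42767367-42767616, plus strand: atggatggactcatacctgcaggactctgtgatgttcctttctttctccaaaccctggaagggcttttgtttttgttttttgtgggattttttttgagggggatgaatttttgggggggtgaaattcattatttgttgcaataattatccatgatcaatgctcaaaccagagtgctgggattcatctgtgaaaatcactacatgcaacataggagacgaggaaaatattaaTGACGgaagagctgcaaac
Pde1c promoter 1, chr4:87108135-87108384, minus strand: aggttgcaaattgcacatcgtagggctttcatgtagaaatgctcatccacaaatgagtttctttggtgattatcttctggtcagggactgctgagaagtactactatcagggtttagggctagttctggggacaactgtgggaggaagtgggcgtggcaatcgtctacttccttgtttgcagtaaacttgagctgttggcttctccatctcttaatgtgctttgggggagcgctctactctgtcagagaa
In Pde10a promoter 1 the matches began 179 and 104 bases before the start. In Pde4d promoter 3 they began 231 and 194 bases before it and in promoter 4, 19 bases before it. The matches of Pde4a began 11 bases before the start of promoter 1 and 18 bases before that of promoter 3.

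Pde4b (NM_017031, chromosome 5, 121759236 to 122136814), another cAMP-specific PDE4 enzyme, was the gene of the 9 that differed between the agents at 1 h. In WT, FSK took it from 3.02 and 2.38 TPM at CON down to 1.45 and 1.14 TPM at 1 h, a difference of −0.69 (SE 0.083, adjusted p 2.21e-07), while Ex-4 left it at 3.19 and 3.496 TPM (0.24). Leaving out replicate 1 of WT CON ended the call for FSK (−0.56), and so did median centring of the libraries (−0.55). In Med14 S983A, from 3.49 and 3.399 TPM at CON, Ex-4 gave 6.98 and 6.46 TPM, a rise of 0.80 (SE 0.083, adjusted p 5.48e-08). FSK gave 2.14 and 2.24 TPM, a difference of −0.48 (SE 0.083, adjusted p 2.87e-05) that did not reach the fold but did with ERCC scaling (−0.62). By 8 h both agents had raised it, to 10.2 and 10.1 TPM with FSK (1.60) and 5.18 and 5.01 TPM with Ex-4 (0.73) in WT. The levels were 18.3 and 16.4 TPM (2.04) and 11.2 and 11.8 TPM (1.49) in Med14 S983A. At 16 h Med14 S983A libraries stayed at 18.1 and 17.4 TPM with FSK and 10.6 and 9.67 TPM with Ex-4, differences of 2.08 and 1.32. WT libraries were then at 6.602 and 7.06 TPM (1.09, called) and 3.18 and 3.51 TPM (0.24, not called). Its levels rest on 101 to 2716 fragments per library.

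Pde4a (NM_013101, chromosome 8, 22189533 to 22234036), the third PDE4 gene, was low, with 108 to 662 fragments per library. In WT its CON libraries were at 1.62 and 1.59 TPM, and 8 h of FSK gave 2.91 and 3.37 TPM, a rise of 0.67 (SE 0.087, adjusted p 1.33e-07). At 16 h the WT differences were 0.53 (SE 0.087, adjusted p 1.14e-05) for Ex-4 and 0.52 (SE 0.087, adjusted p 7.27e-06) for FSK, which passed the fold with a pseudocount of 0.1 TPM (0.74 and 0.73) and in edgeR on recovered fragments (0.94 and 0.96). The value for Ex-4 also passed without replicate 1 of that group (0.64). Med14 S983A libraries began at 5.201 and 5.84 TPM and were at 4.54 and 4.38 TPM at 8 h and 4.12 and 3.67 TPM at 16 h of FSK. Those differences, −0.25 (SE 0.087, adjusted p 0.00959) and −0.41 (SE 0.087, adjusted p 1.36e-04), were below 1.5-fold.

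Besides Pde4b at 1 h of FSK, the calls toward lower levels after treatment came from Pde7a and Pde8b, which encode cAMP-specific enzymes of high affinity. Pde7a (NM_031080, chromosome 2, 104045811 to 104134101) varied least of the 9, by 1.66-fold between its highest and lowest group means, and 12 of the 13 steps between groups in the order of its levels overlapped (not counted over all symbols). Its WT libraries were at 10.9 and 10.9 TPM at CON and 6.62 and 6.51 TPM at 16 h of Ex-4, a difference of −0.65 (SE 0.092, adjusted p 1.22e-06) that came under 1.5-fold with median-centred libraries (−0.47) and ERCC scaling (−0.37). Without replicate 1 of WT at 8 h of FSK, the difference at that time went from −0.51 to a called −0.63. Pde8b (NM_199268, chromosome 2, 24720066 to 24824369) had 3.3 and 2.71 TPM at CON and 1.201 and 1.31 TPM at 8 h of FSK in WT, a difference of −0.83 (SE 0.077, adjusted p 3.42e-10). In Med14 S983A it had 4.89 and 4.897 TPM at CON and 1.22 and 1.38 TPM at 8 h of FSK, a difference of −1.36 (SE 0.077, adjusted p 1.44e-14), and stood at 4.05 and 3.83 TPM at 16 h. The median difference of all symbols at 8 h of FSK was itself −0.34 in WT and −0.28 in Med14 S983A, and relative to it Pde8b was at −0.49 and −1.08. With median-centred libraries the WT value was −0.44 and not called.

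Levels at 8 h were compared with those at 1 h, and those at 16 h with those at 8 h, for each agent and genotype. Of these 72 tests, 20 were called higher and 11 lower, beside 8.51% and 10.2% of all tests (18.7% in either direction). From 1 to 8 h, Pde3b, Pde10a and Pde1c were called higher in all 4 series, by 1.40 to 3.21 for Pde10a, 1.71 to 3.20 for Pde1c and 0.73 to 1.21 for Pde3b. Pde4b was called higher in 3 of the 4, with 0.49 for WT Ex-4 as the exception. Pde4d rose from 1 to 8 h with FSK (0.78 in WT and 1.10 in Med14 S983A), whereas with Ex-4 its differences were −0.073 and −0.32. From 8 to 16 h, 9 tests were called lower and 1 higher. The shares of all symbols were computed only over both steps, agents and genotypes together. None therefore stands beside the counts of a single step or series, and whether these are unusual was not tested. Pde10a fell by 0.67 with FSK in WT and by 1.295 in Med14 S983A, Pde1c fell by 1.16 and 1.39, and Pde4d fell by 0.69 and 0.97. With ERCC scaling the WT falls of Pde10a (−0.32) and Pde4d (−0.33) with FSK, and of both genes named next with Ex-4, were no longer called. Pde3b fell by 1.13 with FSK in Med14 S983A. In WT its difference was −0.42. Pde8b in Med14 S983A with FSK was the call toward higher levels (1.11). With Ex-4, Pde1c and Pde10a fell by 0.69 and 0.61 from 8 to 16 h in WT (the latter −0.54 and −0.57, not called, without replicate 1 of 8 h or of 16 h), while the 9 differences in Med14 S983A lay between −0.31 and 0.22. Pde2a was the gene whose differences from 8 to 16 h were above 0 in all 4 series, between 0.22 and 0.46, and none of them was called. With ERCC scaling its values with FSK were 0.67 in WT and 0.78 in Med14 S983A, both called, and so were those of Pde7a (0.64 and 0.60) and, in WT, of Pde8b (0.64). The counts from 8 to 16 h of FSK thereby went from 0 higher and 3 lower to 3 and 1 in WT, and from 1 and 4 to 3 and 4 in Med14 S983A.

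The agents were compared directly at equal times. They act at different points and were used at different doses, so the values compare these exposures. Over the 3 times, 8 of 27 tests were called in WT and 7 of 27 in Med14 S983A, beside 16.2% and 18.6% of all tests. At 1 h, 1 gene stood above its FSK level under Ex-4 and 0 below it in either genotype (0.652% and 1.14% of all symbols in WT, 1.45% and 1.58% in Med14 S983A). It was Pde4b, by 0.92 (SE 0.083, adjusted p 6.96e-09) in WT and 1.28 (SE 0.083, adjusted p 1.01e-11) in Med14 S983A, with no overlap between the libraries of the agents. At 8 h of Ex-4, 0 were above (23.3%) and 4 below (4.77%) the level under FSK in WT, and 1 above (29.8%) and 3 below (6.72%) in Med14 S983A. With ERCC scaling the WT counts were 2 above and 4 below, and with median-centred libraries 0 and 5, as against 1 and 5 in Med14 S983A. Pde10a was lower with Ex-4, with differences of −1.14 (SE 0.086, adjusted p 9.23e-12) in WT and −1.56 (SE 0.086, adjusted p 1.36e-14) in Med14 S983A. Pde4d was at −1.07 and −1.69, and Pde1c at −0.75 and −1.28. Pde4b was lower in WT (−0.87) and at −0.55, not called, in Med14 S983A. FSK had lowered Pde8b in both genotypes, and it was higher with Ex-4 in Med14 S983A (1.22). The WT value of Pde8b (0.54) was short of the fold but passed with ERCC scaling (0.63), edgeR with TMM (0.63), DESeq2 (0.62) and a pseudocount of 0.1 TPM (0.82). The value of Pde4b in Med14 S983A passed without replicate 2 of Ex-4 (−0.59) or of FSK (−0.63).

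At 16 h of Ex-4, 3 genes were below their FSK level in WT (7.29%) and 2 in Med14 S983A (5.76%), with 0 above it in either (11.4% and 10.6%). Pde4b (−0.85 and −0.76) and Pde4d (−0.63 and −0.97) were lower with Ex-4 in both genotypes, and Pde10a in WT (−1.08). The WT call of Pde4d was lost without replicate 1 of 16 h Ex-4 (−0.57). Pde10a in Med14 S983A differed by −0.37, and by −0.71 with ERCC scaling, where it was called. In Med14 S983A at 16 h, Pde3b (0.49) passed without Ex-4 replicate 2 (0.60), and Pde4a (0.55) without Ex-4 replicate 2 (0.59) or FSK replicate 1 (0.61). Pde2a went the other way in WT without passing the fold, with 0.47 at 8 h and 0.43 at 16 h. For Pde2a, whose 8 h value in WT was 0.62 and called with ERCC scaling, Ex-4 libraries were above FSK libraries at both times.

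Genotype was compared without treatment to ask which of these transcripts already differed in Med14 S983A cells. At CON, 1 of the 9 genes was called higher and 3 lower in Med14 S983A, beside 8.29% and 11.1% of all symbols (19.4% in either direction). Pde2a was lower, with 55.4 and 51.1 TPM in WT and 19.7 and 20.04 TPM in Med14 S983A, a difference of −1.38 (SE 0.050, adjusted p 5.78e-18). Pde4a was higher, with 1.62 and 1.59 against 5.201 and 5.84 TPM, a difference of 1.32 (SE 0.087, adjusted p 9.61e-13). Pde10a (−0.74 (SE 0.086, adjusted p 3.56e-08)) and Pde4d (−0.71 (SE 0.081, adjusted p 2.82e-08)) were lower without overlap of their libraries, and both came under 1.5-fold with ERCC scaling of TPM (−0.56 and −0.53). Both stayed called in edgeR and DESeq2 on recovered fragments with ERCC size factors. Pde8b, at 0.56, passed with median-centred libraries (0.65) and ERCC scaling (0.71), and without WT CON replicate 1 (0.67). For Pde1c, Pde3b, Pde4b and Pde7a the differences were −0.37, −0.28, 0.27 and −0.099, none called. With ERCC scaling 2 were higher and 1 lower. The median of the 9 genes was −0.28 and that of all symbols −0.068.

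Each difference at CON was also set beside the median of the 25 tested genes on either side of it in rn6. Around Pde2a, Pde4a, Pde10a and Pde4d these medians were −0.10, −0.0062, −0.19 and −0.11. The neighbours of Pde4b on chromosome 5 (109499411 to 127735693) stood out, with a median of 0.51 and 46 of 50 above 0, beside 0.27 for Pde4b itself. Its genotype differences under treatment were larger than that median at 1 h of Ex-4 (0.83), 8 h (1.03 with Ex-4 and 0.72 with FSK) and 16 h (1.35 and 1.26). At 1 h of FSK the difference of Pde4b was 0.48, below that median. It was 0.72 with a pseudocount of 0.1 TPM, 0.85 in edgeR with TMM and 0.86 in DESeq2 with its size factors. The median of the neighbours was not computed in those fits. The neighbours were examined at CON only, and the part of this stretch in the values of Pde4b was not tested. For the remaining genes, Pde1c, Pde3b, Pde7a and Pde8b, the medians of the neighbours lay between −0.0789 and 0.0427.

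**Figure D4:**
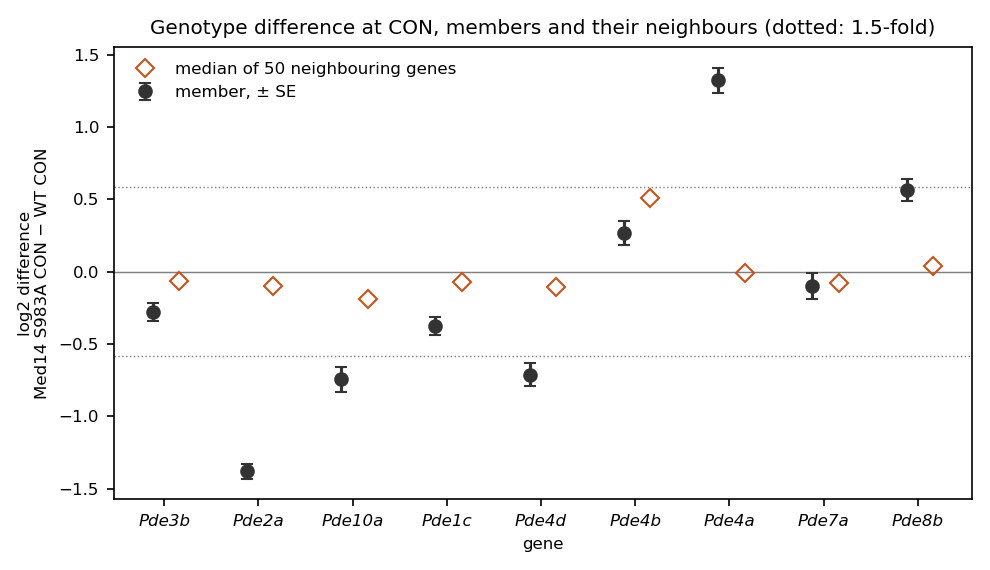
Log2 difference Med14 S983A CON minus WT CON for each gene (black, ± SE) and the median of the 50 tested genes around it (orange), with dotted lines at 1.5-fold. Pde2a (−1.38) and Pde4a (1.32) lay far from their neighbours (−0.10 and −0.0062), while Pde4b (0.27) lay below its neighbours (0.51).

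Under treatment, Med14 S983A and WT were compared in each of the 6 treated conditions. Of 54 tests, 14 were called higher and 11 lower in Med14 S983A, beside 9.73% and 10.9% of all tests (20.6% in either direction). Pde2a was lower in all 6, between −0.63 at 16 h of FSK and −1.49 at 1 h of FSK. With ERCC scaling the first of these was −0.56 and not called. Its WT libraries lay between 51.1 and 90.7 TPM and its Med14 S983A libraries between 17.8 and 41.8 TPM over all conditions, with no overlap. The libraries of Pde4a did not overlap either, with 1.59 to 3.37 TPM in WT and 3.67 to 6.37 TPM in Med14 S983A. How many of all tested symbols were separated by genotype in this way was not counted, so whether it is unusual was not tested. Pde4a was called higher in Med14 S983A at each time of Ex-4 (1.11, 1.05 and 0.93) and at 1 h of FSK (1.13). At 8 and 16 h of FSK its differences were 0.40 and 0.39.

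Pde4b was higher in Med14 S983A in 5 of the 6 treated conditions, up to 1.35 (SE 0.083, adjusted p 2.33e-13) at 16 h of Ex-4, where WT held 3.18 and 3.51 TPM and Med14 S983A 10.6 and 9.67 TPM. At 1 h of FSK, the exception, it was called with a pseudocount of 0.1 TPM (0.72), in edgeR with TMM (0.85) and in DESeq2 with its size factors (0.86). Pde10a was lower in 4 of the 6, with −0.83 at 16 h of FSK as the largest difference. Its differences at 8 h of FSK and 16 h of Ex-4 were −0.21 and −0.12. Of its calls, those at 1 and 8 h of Ex-4 were lost with ERCC scaling of TPM (−0.55 and −0.57), but not in edgeR or DESeq2 with ERCC size factors. That at 8 h of Ex-4 was also lost without replicate 1 of the WT group (−0.55), and that at 1 h of FSK with median-centred libraries (−0.58) and without replicate 1 of the Med14 S983A group (−0.58). Pde8b was higher in 5 of 6, between 0.59 and 0.72, but at 8 h of FSK it differed by 0.027. The call at 1 h of Ex-4 was lost without replicate 1 of either genotype (0.54 without the WT library, 0.57 without the other). That at 16 h of Ex-4 was lost without WT replicate 1 (0.55) and Med14 S983A replicate 2 (0.57), and under both other scalings (0.55 centred, 0.42 with ERCC). Pde3b was lower at 16 h of FSK (−0.77). Pde4d, Pde1c and Pde7a were called in none of the 6, with differences between −0.35 and 0.47.

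Whether the response itself differed between genotypes was tested as an interaction, the change in Med14 S983A minus the change in WT. For Ex-4, 1 of the 9 genes was called higher and 0 lower at 1 h (0.341% and 0.331% of all symbols), 1 and 0 at 8 h (1.98% and 0.798%), and 3 and 0 at 16 h (5.43% and 1.81%), the last becoming 1 and 1 with ERCC scaling and 1 and 0 with median-centred libraries. These were 5 of 27 tests, and 3 of 27 without replicate 1 of WT CON, beside 3.56% of all tests. For FSK the counts were 1 and 0 at 1 h (0.876% and 0.769%), 3 and 1 at 8 h (7.65% and 6.21%), and 4 and 1 at 16 h (10.6% and 6.40%), or 10 of 27 beside 10.8%. A value above 0 means a larger rise, or a smaller fall, in Med14 S983A. All 6 interactions share the CON libraries of both genotypes.

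For Pde4b the interaction was 0.77 (SE 0.12, adjusted p 4.53e-05) at 8 h and 1.09 (SE 0.12, adjusted p 7.95e-08) at 16 h of Ex-4, and 0.99 (SE 0.12, adjusted p 1.17e-07) at 16 h of FSK, and these calls kept their side of the threshold under every alternative run. Pde4d rose further in Med14 S983A at 8 h (0.98 (SE 0.11, adjusted p 1.11e-07)) and 16 h (0.70 (SE 0.11, adjusted p 1.35e-05)) of FSK, from a lower CON level to similar or higher TPM. At 1 h its interactions were 0.61 (SE 0.11, adjusted p 0.00246) with Ex-4 and 0.67 (SE 0.11, adjusted p 3.37e-04) with FSK. The first was lost with median-centred libraries (0.58) and without WT CON replicate 1 (0.54), Med14 S983A CON replicate 2 (0.56) or replicate 1 of Med14 S983A at 1 h of Ex-4 (0.56). The second was lost with ERCC scaling (0.44) and without Med14 S983A 1 h FSK replicate 2 (0.55).

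Pde1c rose further in Med14 S983A at 8 h of FSK, by 0.85 (SE 0.085, adjusted p 1.13e-08). At 16 h its interaction was 0.69 with Ex-4, which was lost with median-centred libraries (0.56) and ERCC scaling (0.30). It was 0.61 with FSK, which was lost with the same scalings (0.52 and 0.51), without Med14 S983A CON replicate 1 (0.58) and without Med14 S983A 16 h FSK replicate 1 (0.58). Pde2a responded further to FSK in Med14 S983A at 16 h (0.75 (SE 0.071, adjusted p 2.81e-09)). At 8 h its value was 0.60, lost with median-centred libraries (0.55) and ERCC scaling (0.51), without WT CON replicate 1 (0.54) and without Med14 S983A 8 h FSK replicate 1 (0.55). Pde4a went the opposite way, with −0.92 (SE 0.12, adjusted p 9.73e-07) at 8 h and −0.93 (SE 0.12, adjusted p 6.29e-07) at 16 h of FSK, where WT libraries were above their CON and Med14 S983A libraries below theirs. At 16 h of Ex-4 its value of −0.39 was not called, but it was with ERCC scaling (−0.70), edgeR with TMM (−0.74), DESeq2 with its own (−0.75) and with ERCC size factors (−1.07) and a pseudocount of 0.1 TPM (−0.59).

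Pde10a had an interaction of 0.63 (SE 0.12, adjusted p 2.05e-04) at 16 h of Ex-4. It was 0.50 with median-centred libraries and 0.22 with ERCC scaling, and 0.54, 0.58 and 0.49 without replicate 1 of WT CON, of WT 16 h Ex-4 and of Med14 S983A 16 h Ex-4, none of them called. The TPM behind it were 24.4 and 25.96 in WT and 25.5 and 20.9 in Med14 S983A, which overlapped, while the CON levels were 13.7 ± 1.22 and 7.78 ± 0.0983 TPM (SD, n = 2 each). For Pde3b, Pde7a and Pde8b no interaction was called. The values of Pde3b and Pde8b nearest to the fold, −0.49 at 16 h and −0.54 at 8 h of FSK, passed with median-centred libraries (−0.59 and −0.59) and with ERCC scaling (−0.62 and −0.63). Other interactions passed when 1 library was left out. They were Pde4b at 1 h of Ex-4 (0.56), with 0.69 without WT CON replicate 2 and 0.61 without replicate 2 of either treated group, and Pde7a at 16 h of Ex-4 (0.48), with 0.62 without Med14 S983A CON replicate 1 and 0.61 without Med14 S983A 16 h Ex-4 replicate 2. At 8 h of FSK, Pde10a (0.54) reached 0.62 without WT CON replicate 2 and Pde8b −0.64 without WT CON replicate 1, and both passed without Med14 S983A 8 h FSK replicate 2. Pde3b at 16 h of FSK reached −0.59 without Med14 S983A CON replicate 2. The share of spike-in was 0.8255% ± 0.0148 in WT and 0.978% ± 0.105 in Med14 S983A at 16 h of Ex-4, and 1.0025% ± 0.0700 and 0.916% ± 0.0113 in their CON (SD, n = 2 each). With ERCC scaling the median of this contrast over all symbols went from 0.087 to −0.31.

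**Figure D5:**
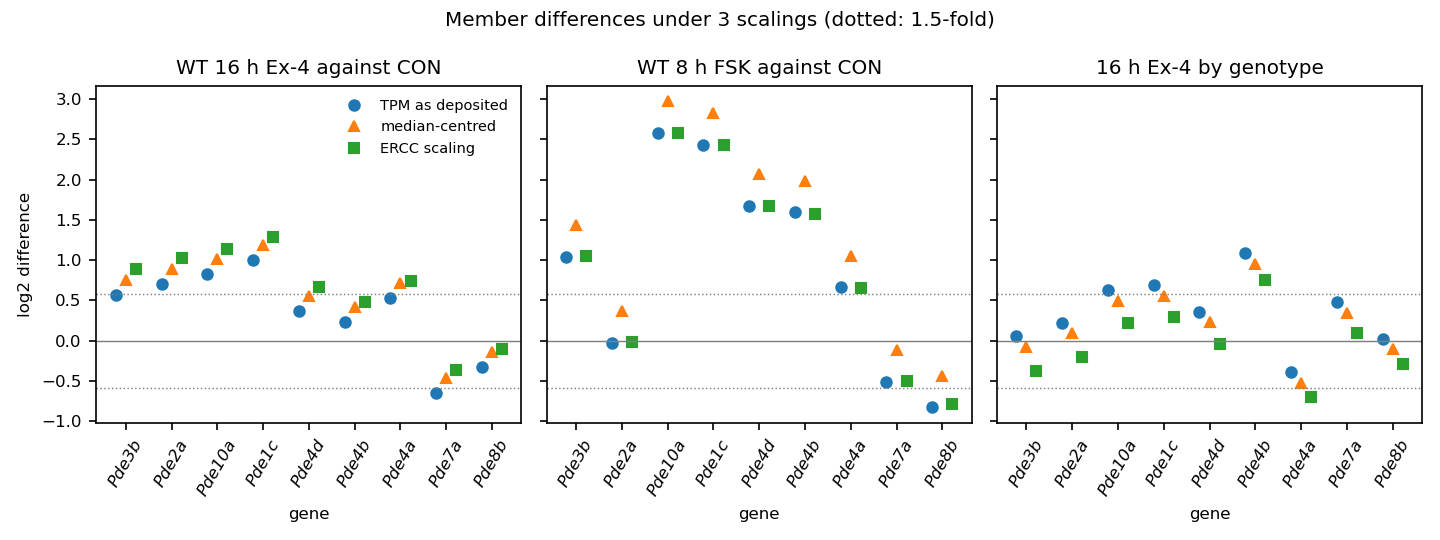
Log2 differences of the 9 genes under 3 scalings (circles: TPM as deposited; triangles: each library centred on its median; squares: ERCC scaling) in 3 contrasts, with dotted lines at 1.5-fold. At 16 h of Ex-4 by genotype (right) Pde10a moved from 0.63 to 0.22 with ERCC scaling, while at 8 h of FSK in WT (middle) Pde10a and Pde1c stayed above 2.4 under each scaling.

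The symbols had 15 transcript rows in the table, 5 for Pde4d, 3 for Pde2a and 1 for each other gene. Rows of a symbol end at the same base in rn6 and overlap, so their values are not independent and isoforms cannot be told apart. The 5 rows of Pde4d, whose starts lie between 40219999 and 41157982 on chromosome 2, had mean levels of 16.7 to 19.5 TPM. Their ratio of TPM to CON at 8 h of FSK lay between 3.194 and 3.404 in WT and between 6.979 and 7.202 in Med14 S983A. For the 3 rows of Pde2a, with means of 43.7 to 45.4 TPM, the ratio at 16 h of Ex-4 in WT was 1.64 in each. Summing the rows of a symbol changed none of the 351 values of the 9 genes to the other side of the threshold.

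Other genes with phosphodiesterase symbols gave a background. They were listed by symbol and not by enzyme activity, so a member such as Pde6d need not encode a catalytic enzyme. Of 15 listed, 14 were in the table and 9 reached 1 TPM. At 8 h of FSK in WT, 2 of these were higher and 5 lower, beside 8.77% and 34.8% of all symbols, with a median of −0.77 beside −0.34. Pde3a, the sister gene of Pde3b with a mean of 1.497 TPM, rose by 2.15 and the cAMP-specific Pde8a by 1.16. Pde4c (−2.23), Pde6d (−2.17), Pde1b (−1.52), Pde1a (−0.80) and Pde5a (−0.77) fell. Within the PDE4 genes, Pde4d, Pde4b and Pde4a rose where Pde4c fell, and within the PDE1 genes Pde1c rose where Pde1a and Pde1b fell. At 8 h of FSK in Med14 S983A, 3 of the 9 were higher and 5 lower, among them Pde7b (1.38) and Pde4c (−3.31), with a median of −0.89 (11.6% and 34.5% of all symbols, median −0.28). After 8 h of Ex-4 in WT, 1 was higher and 2 lower (3.61% and 5.99%), and at CON 4 were higher and 1 lower in Med14 S983A (8.29% and 11.1%), led by Pde6d (1.13) and Pde7b (−1.23).

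Of 26 genes of cAMP production and response, 19 were tested. In WT at 8 h of FSK, 2 were higher and 8 lower, with a median of −0.52, beside 8.77% and 34.8% of all symbols, so the counts of this list were near those of all genes. The adenylyl cyclase genes Adcy6 (−1.75), Adcy8 (−1.29) and Adcy1 (−0.83) and the catalytic subunit gene Prkacb (−2.17) fell. The cyclases were named after their values were seen. The kinase inhibitor gene Pkib rose (0.85), and Prkar1a, the other gene called higher, went from 480 ± 6.05 to 721 ± 25.3 TPM (SD, n = 2 each). With Ex-4 at 8 h in WT, 0 were higher and 4 lower (3.61% and 5.99%). At CON, 1 was higher (Adcy5, 1.86) and 5 lower in Med14 S983A (8.29% and 11.1%), with Gcgr, the glucagon receptor, at −1.95. Of 11 cGMP genes 9 were in the table and 4 were tested. In WT, 1 was higher and 0 lower at 8 h of Ex-4 (3.61% and 5.99%), and 1 and 1 at 8 h of FSK (8.77% and 34.8%). At CON, 2 were higher and 1 lower in Med14 S983A (8.29% and 11.1%), with a median of 0.59 beside −0.068 over all symbols. Gucy2c, a guanylyl cyclase receptor, rose at 8 h of Ex-4 (1.32) and of FSK (1.68) in WT. It was lower in Med14 S983A at CON (−2.41), as Pde2a was, whereas Npr2 was higher (2.30). Of 14 anchoring proteins and PDE4 partners 12 were tested, and at 1 h of FSK Akap12 was the gene called (1 higher and 0 lower, beside 2.53% and 4.94% of all symbols in WT and 3.19% and 7.20% in Med14 S983A), at 0.60 in WT and 1.26 in Med14 S983A.

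Tested symbols with a mean of at least 10 TPM, 7676 in all, were ranked by the Pearson r of their log2 values with those of a gene over the 14 group means. These points share libraries and CON groups, so r is a description. Nearest to Pde10a were Arl8b (0.977), Atp5mc1 (0.972) and Fyb1 (0.969), and nearest to Pde1c were Rad23b (0.960), Slc7a8 (0.957) and Pbdc1 (0.956). For Pde4d they were Mapkapk2 (0.976), Zfand2a (0.955) and Nt5dc3 (0.950), and for Pde2a Gatc (0.962), Kirrel3 (0.961) and Prss23 (0.954). In the order of the 14 group means, 10 of the 13 steps of Pde1c separated groups whose libraries did not overlap, and so did 9 steps of Pde2a, 8 of Pde4b and Pde8b, 7 of Pde3b, Pde4d and Pde10a, 6 of Pde4a and 1 of Pde7a. No such count was made over all tested symbols, so whether these are unusual was not tested. At the top of the order of Pde10a, WT 8 h FSK (88.6 and 85.8 TPM) lay above Med14 S983A 8 h FSK (79.8 and 71.2 TPM) without overlap, whereas for Pde1c and Pde4d the Med14 S983A libraries were the higher ones.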

How the data were processed

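Total RNA of 28 libraries was sequenced with an ERCC spike-in. Per the study's methods, the authors aligned reads with STAR 2.5.3a to rn6 with the ERCC sequences, computed TPM over exons of RefSeq transcripts with HOMER 4.11.1, and obtained the deposited ERCC count table with QoRTs 1.3.6. The deposited TPM table had 19223 rows. For each symbol the transcript of highest mean TPM was kept, and 10275 symbols with a mean of at least 1 TPM were tested on log2(TPM + 1) with limma 3.58.1 in R 4.3.3, as 14 group means, with Benjamini-Hochberg adjustment within each of 39 contrasts. The study used DESeq2 on read counts with ERCC size factors, which the deposited TPM do not allow directly. Fragments were recovered from TPM and transcript length. At 2 reads a fragment, 100% of 175533 values below 1000 fragments came out as whole reads within 0.05 fragments, against 32.9% by chance. Of these values, 54.2% were whole fragments. Rounded to whole fragments, the recovered values served edgeR 4.0.16 and DESeq2 1.42.0 as alternatives. Other alternatives were a pseudocount of 0.1, no filter, a minimum of 5 TPM, median-centred libraries, ERCC scaling, only the libraries of a contrast, a replicate block, each library left out, no fold minimum and TPM summed over transcripts. The fit was tested on simulated data. Sequences came from RefSeq tables (GRCr8). The 9 genes, the lists of other phosphodiesterase, cAMP, cGMP and anchoring genes, the 25 neighbours on each side and the rule for the 3 most similar genes were chosen with earlier results of these data known. Named are the 9 genes, the other phosphodiesterase genes tested, list members with the largest rise or fall in a contrast, and the most similar genes. Med14 and markers of cell types were named as well. Outside this rule, Adcy8 was named after its value was seen.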

Additional observations from a re-analysis of the deposited data

Results flagged for a closer look

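The interaction of treatment and genotype was tested with limma over 10275 symbols, and 15 of the 54 differences of the 9 genes were called. In these, the change in Med14 S983A and the change in WT were apart by more than 1.5-fold. With Ex-4 there were 5 of these calls, beside 3.56% of all tests called in either direction. With FSK there were 10, beside 10.8% of all tests. No share was computed over both agents together, so none stands beside the 15. Each of the 15 is a difference of log2(TPM + 1) changes, and all rest on the same CON libraries. With Ex-4, Pde4d differed by 0.6089 at 1 h and Pde4b by 0.7651 at 8 h. At 16 h of Ex-4 the differences were 1.0852 for Pde4b, 0.692 for Pde1c and 0.6269 for Pde10a. With FSK, Pde4d differed by 0.6652 at 1 h, 0.9837 at 8 h and 0.6969 at 16 h. Pde1c differed by 0.8451 at 8 h and 0.6139 at 16 h of FSK, and Pde2a by 0.6005 and 0.7497. Pde4b differed by 0.9914 at 16 h of FSK. Pde4a was the gene with values below 0, −0.9219 at 8 h and −0.9334 at 16 h. Of these, the values of Pde4d at 1 h, of Pde10a and Pde1c at 16 h of Ex-4, of Pde1c at 16 h of FSK and of Pde2a at 8 h of FSK were not called under at least 1 scaling, as given beside them above.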

How the results depend on the processing

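No value of the 9 genes that was called changed sign under any alternative run. Without the fold minimum, the counts of calls went to 20 (WT Ex-4), 19 (Med14 S983A FSK), 8 (genotype at CON), 41 (genotype under treatment), 13 (interaction with Ex-4), 16 and 17 (Ex-4 against FSK in WT and Med14 S983A) and 58 (later against earlier times). The share of all symbols called was not computed for this rule, so these counts show only how the 9 genes moved. A minimum mean of 5 TPM left 16 calls for genotype under treatment, since it removes Pde4a and Pde8b. For the interaction with Ex-4, 5 calls became 2 with median-centred libraries and between 3 and 6 when 1 library was left out, the cause of which was not tested. Over 351 values, median centring ended 12 calls and added 11, ERCC scaling ended 17 and added 21, edgeR with TMM ended 4 and added 19, and DESeq2 with its own size factors ended 4 and added 19. DESeq2 with ERCC size factors, the scaling the study used, and edgeR with ERCC scaling each ended 13 and added 27. Leaving out 1 library at a time ended 26 and added 21 of 1620. Depth limits Pde8b, Pde4b and Pde4a most, with as few as 81, 101 and 108 fragments in a library, and with 2 libraries a group the spread rests on 14 residual degrees of freedom shared by all groups.

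Deviations of same-numbered libraries from their group means correlated between −0.28 and 0.28 over 91 pairs of groups, with a median of 0.0035 and 17 above 0.1, so the numbers were not taken to pair the libraries. With the replicate number as a block (replicate block), all 351 values kept their side of the threshold, and the counts stayed at 10 of 27 for Ex-4 and 14 of 27 for FSK in WT.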
